A study of Mus musculus with 5 samples.

Results

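The genes described here are 8 basic helix-loop-helix (bHLH) transcription factors of the mesoderm, Hand1, Hand2, Tcf21, Tcf15, Mesp1, Mesp2, Msc and Scx. They were taken by name from 22350 protein-coding genes of the mm9 annotation and compared with the H3K27me3 peak lists of 3 lines of mouse embryonic fibroblasts (MEFs). By the study's methods the MEFs came from an E13.5 embryo with loxP sites in Eed, which encodes a subunit of Polycomb Repressive Complex 2 (PRC2), and all lines descend from these Eed floxed cells. The labels give Cre treatment for the Eed deletion line only. The K27M line was transduced with H3.3K27M, the histone mutant of diffuse midline glioma, and the EZHIP line with human EZHIP, a protein of posterior fossa ependymoma. The K27R line received H3.3K27R, in which arginine takes the place of the lysine, and served as the reference here. The transgenes were overexpressed from lentiviruses with a general EF1a promoter. The untransduced parental line and the Eed deletion line, which is a single clone, were not analysed here.

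Each line had 1 library, so that no difference below could be set against a spread between replicates and none was tested. The lists held positions without read counts, and the depth of the libraries is therefore unknown. The K27R list held 12845 peaks with a median width of 16.0 kb, the K27M list 3736 peaks (6.8 kb) and the EZHIP list 4992 peaks (4.4 kb). Absence from a list means that the caller of the authors drew no peak there, not that the mark was absent. As to the labelled cell type, the 5′ ends of 11 of 12 fibroblast marker genes lay outside the K27R peaks, Pdgfra being the exception. Of all protein-coding genes, 30.1% had the 5′ end inside such a peak. H3K27me3 peaks report on a repressive mark and not on expression. Of the markers of other cell types, 2 of 4 epithelial, 2 of 4 endothelial, 2 of 3 blood and 0 of 3 pluripotency genes lay in K27R peaks. Pluripotency genes were thus outside these peaks too, and the counts do not identify the cell type.

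PRC2 trimethylates lysine 27 of histone H3 at genes that a cell lineage keeps silent. It is recruited mainly to CpG islands, stretches of DNA rich in CG dinucleotides, and the mark then spreads from there into broad domains. The bHLH factors bind E-box sequences as dimers. Tissue-specific members such as those described here pair with broadly expressed class I partners, and Id proteins block that pairing. Hand1 and Hand2 act in the heart, and Hand2 also in the limb bud. Tcf21 acts in the epicardium and in the mesenchyme of visceral organs, and Tcf15 (paraxis) in the epithelial somite. Mesp1 marks the earliest cardiac mesoderm, whereas Mesp2 sets segment boundaries in the presomitic mesoderm. Msc (musculin) is a repressor expressed in precursors of facial muscle, and Scx (scleraxis) acts in tendon progenitors.

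In Hand1, Hand2, Tcf21, Mesp1, Mesp2 and Msc a CpG island overlapped the coding part of the exon with the start codon. The 300 bases with the most CG inside that overlap were read from the mm9 sequence. Shown are Tcf21, which had few CG and was in the peaks of all 3 lists, and the neighbours Mesp1 and Mesp2, which differed in state. Each is given 5′ to 3′ on the strand of its gene with every CG in capitals. CG reads the same on both strands.
Tcf21 (chr10:22539279-22539578, minus strand): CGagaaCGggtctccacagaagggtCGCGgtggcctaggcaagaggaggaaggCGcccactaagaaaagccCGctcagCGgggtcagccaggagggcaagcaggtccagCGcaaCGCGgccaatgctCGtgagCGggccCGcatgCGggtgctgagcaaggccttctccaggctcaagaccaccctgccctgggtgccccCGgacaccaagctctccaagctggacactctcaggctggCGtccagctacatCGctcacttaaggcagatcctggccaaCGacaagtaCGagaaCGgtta
Mesp1 (chr7:86937952-86938251, minus strand): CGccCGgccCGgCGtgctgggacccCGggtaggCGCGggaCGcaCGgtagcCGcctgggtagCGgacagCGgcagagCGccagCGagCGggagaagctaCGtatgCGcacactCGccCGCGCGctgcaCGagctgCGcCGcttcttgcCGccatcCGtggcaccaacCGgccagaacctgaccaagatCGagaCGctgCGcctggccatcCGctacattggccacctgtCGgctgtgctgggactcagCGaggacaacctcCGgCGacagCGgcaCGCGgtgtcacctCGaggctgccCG
Mesp2 (chr7:86955906-86956205, plus strand): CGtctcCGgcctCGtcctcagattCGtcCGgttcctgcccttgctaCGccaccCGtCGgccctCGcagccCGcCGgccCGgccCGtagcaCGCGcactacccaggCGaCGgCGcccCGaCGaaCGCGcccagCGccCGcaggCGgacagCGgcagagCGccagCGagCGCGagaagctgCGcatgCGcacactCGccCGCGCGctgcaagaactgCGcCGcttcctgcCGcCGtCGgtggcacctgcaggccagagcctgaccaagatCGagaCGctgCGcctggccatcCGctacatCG

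These windows held 20 CG in Tcf21, 40 in Mesp1 and 46 in Mesp2. The windows of Hand1, Hand2 and Msc held 22, 37 and 38. A window could be drawn in this way for 1635 protein-coding genes, with a median of 36 CG. Of these, 97.9% held at least as many CG as that of Tcf21, 36.9% as many as that of Mesp1 and 17.1% as many as that of Mesp2. The window of Mesp2 thus held more CG than that of Mesp1. The longest run of bases that the Mesp1 and Mesp2 windows shared was 42 bases.

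The first comparison asked which of the 8 genes carried a peak over the 5′ end in each line. In K27R cells 7 of 8 did, Scx being the exception, against 30.1% of all protein-coding genes. In K27M cells 5 of 8 did (Hand1, Hand2, Tcf21, Tcf15 and Mesp1), against 9.02% of all genes. The same 5 genes carried a peak in EZHIP cells, against 7.73% of all genes. Mesp2 and Msc were in the K27R list and in neither other list. These counts describe genes that were picked by name with earlier results known, and were not tested.

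Of the 7 genes with a K27R peak, 5 (71.4%) were kept in both other lists. Mesp1 and Mesp2 share a K27R peak, so that these genes are not independent. Among all 6735 genes with the 5′ end in a K27R peak, 29.9% were in a K27M peak, 25.6% in an EZHIP peak, 21.9% in both and 66.5% in neither. The share kept in both was also 71.4% among the other mesoderm transcription factors counted below. It was 80.0% among the proneural, 66.7% among the downstream and 100% among the upstream genes. A high share was thus not particular to the mesoderm bHLH genes. A CpG island lay within 1000 bp of the 5′ end in 7 of the 8 genes, against 55.1% of all genes. In Hand1 it began 1084 bp downstream of the annotated 5′ end. Among the 3116 K27R genes with an island that near, 39.3% were kept in both lists and 43.5% were in neither. The members of that kind were 6, of which Hand2, Tcf21, Tcf15 and Mesp1 were kept in both lists and Mesp2 and Msc in neither.

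**Figure D1:**
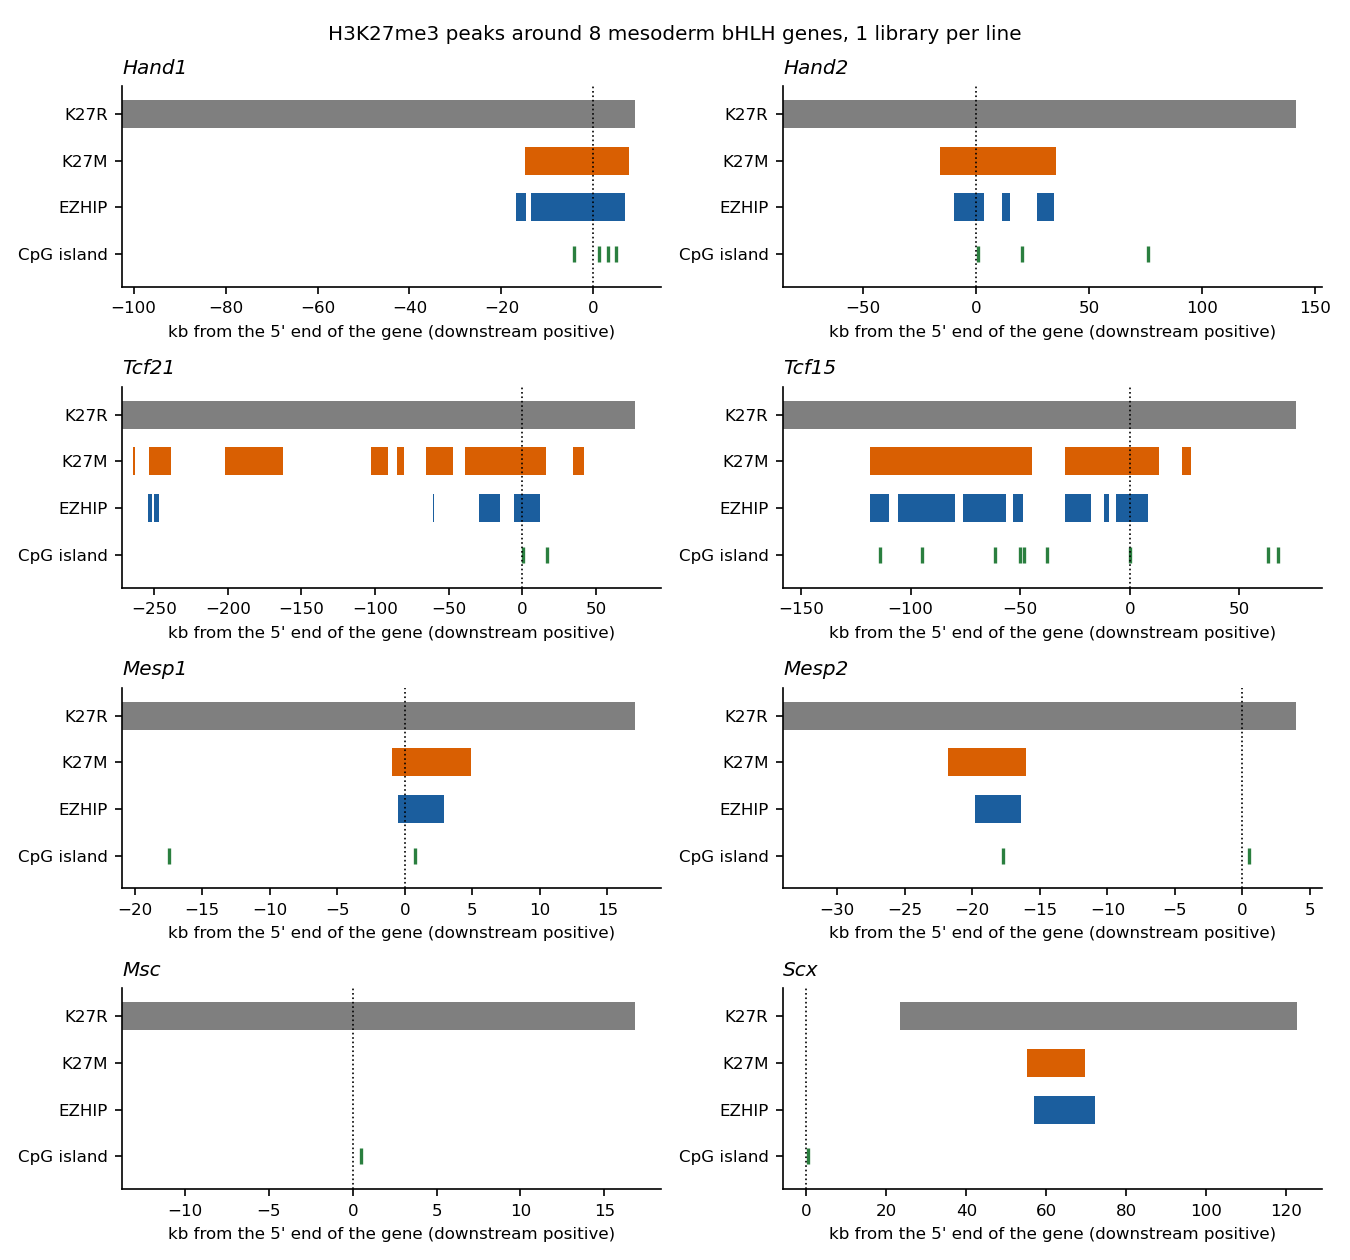
Peaks of the K27R, K27M and EZHIP lists (bars, 1 library each) and CpG islands (ticks) by distance in kb from the 5′ end of each gene (dotted line), downstream to the right. Each panel shows the K27R region that holds the 5′ end and the residual peaks in it, except that of Scx, which shows the nearest peak of each list. The residual peaks lie over the 5′ ends of Hand1, Hand2, Tcf21, Tcf15 and Mesp1 and not over those of Mesp2, Msc and Scx.

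Where a peak lay over the 5′ end of a member, it covered the whole gene or nearly all of it. The members are short, from 1.548 kb (Mesp1) to 5.537 kb (Tcf15). The shares of all genes given below are not matched for gene length. The whole gene body lay inside K27R peaks in 7 of the 8 genes, inside K27M peaks in 5 and inside EZHIP peaks in 4. Hand2 made the difference, as the EZHIP peak held 3.421 of its 3.535 kb (96.8%). Summed over the 8 gene bodies, K27R peaks covered 91.9% of the length, K27M peaks 70.5% and EZHIP peaks 70.0%. Among all protein-coding genes, the whole body lay inside peaks in 20.1% for K27R, 2.78% for K27M and 1.82% for EZHIP.

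Hand1 (ENSMUSG00000037335.7) spans chr11:57642207-57646320 on the minus strand. The K27R peak over its 5′ end was 111.6 kb wide (chr11:57637201-57748800) and reached 102.48 kb upstream but only 9.119 kb downstream. The K27M peak was 22.6 kb wide (chr11:57638601-57661200) and the EZHIP peak 20.4 kb (chr11:57639401-57659800). They reached 7.719 and 6.919 kb downstream of the 5′ end, close to the reach of the K27R peak, but only 14.88 and 13.48 kb upstream. The 4 CpG islands of the region all lay within both peaks. Hand1 was the member at which the K27M and EZHIP peaks were closest in width, with a ratio of 1.11. A second EZHIP peak of 2.2 kb lay just upstream, and when peaks up to 10000 bp apart were joined the order turned, with 23.8 kb in EZHIP and 22.6 kb in K27M.

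Hand2 (ENSMUSG00000038193.3) spans chr8:59799780-59803314 on the plus strand. Its K27R peak was 227.0 kb wide (chr8:59714401-59941400), its K27M peak 51.4 kb (chr8:59783801-59835200) and its EZHIP peak 13.0 kb (chr8:59790201-59803200). The K27M peak reached 35.42 kb downstream of the 5′ end, whereas the EZHIP peak stopped 3.42 kb downstream, just short of the end of the gene. Further EZHIP peaks of 3.2 and 7.4 kb lay inside the K27M peak. Of the 3 islands in the region, the 1577 bp island at the 5′ end was in both lists. An island of 504 bp further downstream was in the K27M peak only, and one of 214 bp was in neither. The 5′ end of the lincRNA 5033428I22Rik lay in the K27M peak and 0.486 kb from the nearest EZHIP peak.

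Tcf21 (ENSMUSG00000045680.7) spans chr10:22537085-22539934 on the minus strand and had the widest K27R peak of the 8 genes, 348.4 kb (chr10:22463201-22811600). It reached 271.666 kb upstream of the 5′ end. The K27M peak over the 5′ end was 55.2 kb wide (chr10:22523801-22579000) and the EZHIP peak 17.4 kb (chr10:22528001-22545400). Beyond it the region held 7 other K27M peaks, of 1.2 to 39.6 kb, none of which held a CpG island. The 4 other EZHIP peaks were 1.2 to 14.0 kb wide. K27M peaks thus covered 154.0 kb of the region (44.2%) and EZHIP peaks 38.6 kb (11.1%).

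Tcf15 (ENSMUSG00000068079.5) spans chr2:151969297-151974833 on the plus strand. Its K27R peak was 234.0 kb wide (chr2:151811201-152045200), its K27M peak 42.8 kb (chr2:151939801-151982600), and its EZHIP peak 14.8 kb (chr2:151963001-151977800). Of the 8 genes, this one lay in the region with the most CpG islands, 9, of which 6 were in K27M peaks and 5 in EZHIP peaks. K27M peaks covered 120.8 kb of the region (51.6%) and EZHIP peaks 88.6 kb (37.9%). The widest K27M peak of the region, 73.8 kb, lay upstream of the one over Tcf15 and held the 5′ end of Scrt2, a zinc finger repressor of neurons, and that of the transcript AA387200. Both 5′ ends were in EZHIP peaks as well. The protein-coding genes Srxn1, which encodes sulfiredoxin, and 2310046K01Rik had their 5′ ends in the same K27R region and in neither residual list. Srxn1 lay 6.652 kb from the nearest K27M peak and 8.549 kb from the nearest EZHIP peak, although an island of 609 bp stood at its start.

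Mesp1 (ENSMUSG00000030544.5, chr7:86937127-86938674, minus strand) and Mesp2 (ENSMUSG00000030543.8, chr7:86955613-86958317, plus strand) are divergent neighbours with 5′ ends 16.939 kb apart. Both lay in 1 K27R peak of 38.0 kb (chr7:86921601-86959600). Mesp1 kept a K27M peak of 5.8 kb (chr7:86933801-86939600) and an EZHIP peak of 3.4 kb (chr7:86935801-86939200), which reached only 0.926 and 0.526 kb upstream of its 5′ end. These were the narrowest residual peaks over any of the 8 genes. Mesp2 lay 16.013 kb from that K27M peak and 16.413 kb from that EZHIP peak, and no residual peak was drawn over it in either line. With a minimum peak width of 5000 bp Mesp1 too left the EZHIP list, which then held 4 of the 8 genes.

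The pair was also compared in CG content, which the choice of genes did not use. The island of Mesp1 spanned 979 bp (chr7:86937418-86938396) and that of Mesp2 414 bp (chr7:86955897-86956310). In bins of 200 bp the fullest bin of the EZHIP peak held 25 CG. The fullest bin outside both lists held 30 CG and lay 0.487 kb downstream of the Mesp2 5′ end, inside the island and the coding window of that gene. Over 2200 bp around the 5′ end, Mesp1 had 44.1 CG per kb and Mesp2 36.4. The 300 bases upstream of the 5′ end held 6 CG in Mesp1 and 8 in Mesp2. Hence the kept gene had the longer island, whereas the gene without a residual peak had the bin with more CG.

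**Figure D2:**
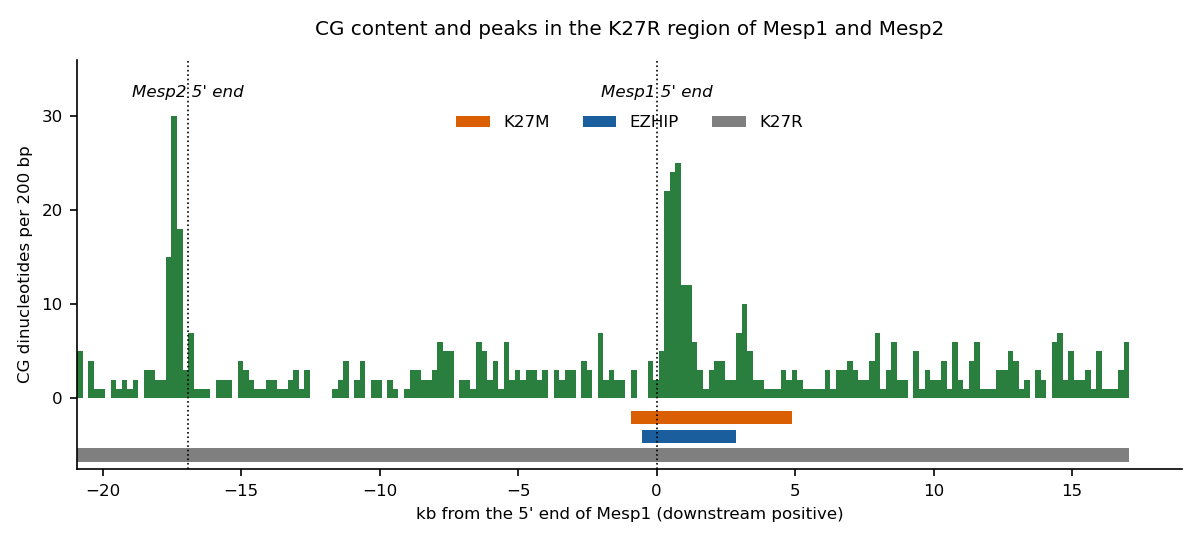
CG dinucleotides per 200 bp bin (bars, counted in the mm9 sequence) over the 38.0 kb K27R region, by distance in kb from the 5′ end of Mesp1 (dotted lines mark both 5′ ends), with the span of the peaks of each list below. The K27M and EZHIP peaks cover the CG-rich stretch at Mesp1 and not the one at Mesp2, whose fullest bin is the taller with 30 against 25 CG.

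Such mixed regions were common. Among 1253 K27R regions with at least 2 protein-coding 5′ ends, 418 (33.4%) held both a 5′ end kept in both residual lists and a 5′ end in neither. In 89 regions every 5′ end was kept in both lists, and in 535 none was in either list. The regions of Mesp1 and Tcf15 belong to the 418, and so does that of Hand2, where Scrg1 lay 99.52 kb from the nearest K27M peak.

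Msc (ENSMUSG00000025930.5, chr1:14743427-14746047, minus strand) had the narrowest K27R peak, 30.6 kb (chr1:14729201-14759800). Neither residual list had a peak within it. The nearest K27M peak lay 1622.647 kb away and the nearest EZHIP peak 1135.154 kb away, against medians of 252.885 and 233.34 kb for all genes outside these lists. The 652 bp island of the gene (chr1:14745233-14745884) was thus left without a peak. The 5′ end of Gm9947, which overlaps Msc on the other strand, was in the same state.

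Scx (ENSMUSG00000034161.7, chr15:76287868-76289898, plus strand) was the member without a peak in any line. It lies inside an intron of Bop1, a gene of ribosome biogenesis, on the opposite strand. The nearest K27R peak began 23.333 kb downstream (chr15:76311201-76410600), the nearest K27M peak 55.133 kb and the nearest EZHIP peak 56.933 kb downstream. These residual peaks were 14.4 and 15.2 kb wide and held the 5′ end of Scrt1, a relative of Scrt2, which was named after its values were seen. Scx has an island at its 5′ end, and its 45.9 CG per kb over 2200 bp around the 5′ end were above those of 5 other members, the 45.0 of Msc included.

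CG content near the 5′ end did not order the genes by state. Over the same 2200 bp, the 5 kept genes ranged from 34.1 CG per kb in Tcf21 and 35.9 in Hand1 to 70.0 in Hand2 and 70.5 in Tcf15. Msc, without a residual peak, and Scx, without any peak, lay within that range. In the coding windows, the kept genes Tcf21 and Hand1 held 20 and 22 CG, fewer than the 38 of Msc and the 46 of Mesp2. Across all genes with such a window the median was 38 CG for the 353 in all 3 lists and 33 for the 224 in the K27R list only, with overlapping quartiles (31 to 43 and 25 to 39). In the 300 bases upstream of the 5′ end the medians lay further apart, at 15 CG for the 1476 genes in all 3 lists (quartiles 8 and 25) and 5 CG for the 4476 in the K27R list only (2 and 11).

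The width of the peak over the 5′ end was compared between lists to ask how far each peak had narrowed. In the 5 genes with a peak in every list, the K27R peak was 4.42-fold (Hand2) to 6.55-fold (Mesp1) as wide as the K27M peak, with a median of 5.47. It was 5.47-fold (Hand1) to 20.02-fold (Tcf21) as wide as the EZHIP peak, with a median of 15.81. Over the 1476 genes in all 3 lists the medians were 7.52 and 11.25. The EZHIP peak was narrower than the K27M peak in 5 of 5 genes, by 1.11-fold to 3.95-fold with a median of 2.89, against 78.7% of the 1476 genes and a median of 1.42. In 5 of 5 the EZHIP peak also lay inside the K27M peak, against 69.9%.

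The EZHIP list had left smaller gaps open than the K27M list, 1200 bp against 5200 bp at the shortest, which bears on these widths. After peaks up to 10000 bp apart were joined in every list, the K27M to EZHIP ratio was 2.11 in Hand2, 1.97 in Tcf21, 1.13 in Tcf15, 1.71 in Mesp1 and 0.95 in Hand1. The K27R to EZHIP ratio after joining was 4.69 in Hand1, 9.3 in Hand2, 8.42 in Tcf21, 6.16 in Tcf15 and 14.0 in Mesp1, with a median of 8.42 in place of 15.81, and was then largest in Mesp1. The median EZHIP width over the 5 genes then rose from 14.8 to 24.4 kb, while that of K27M stayed at 42.8 kb.

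**Figure D3:**
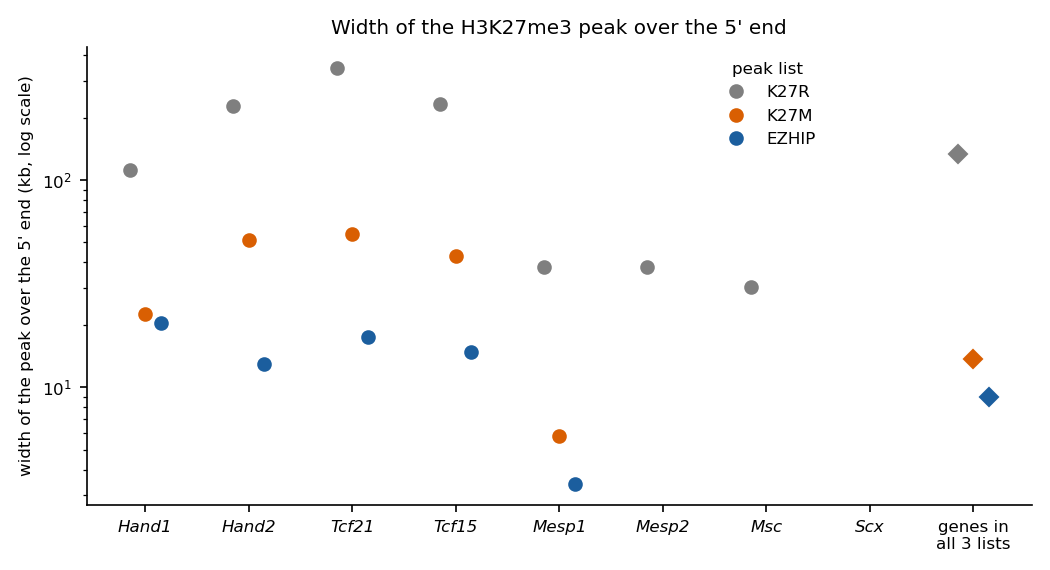
Width in kb (log axis) of the K27R, K27M and EZHIP peak over the 5′ end of each gene (circles, 1 library each), with the medians of the 1476 genes in all 3 lists (diamonds). The widths fall from K27R to K27M to EZHIP in Hand1, Hand2, Tcf21, Tcf15 and Mesp1, only K27R points stand at Mesp2 and Msc, and Scx has none.

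The K27R regions of the genes were then examined as wholes. The 6 regions held 14 K27M peaks, which covered 35.8% of their length, and 18 EZHIP peaks, which covered 17.9%. Among all 3623 K27R regions with a protein-coding 5′ end, those with a residual peak were covered to a median of 15.2% by K27M and 11.7% by EZHIP, and 42.7% had neither. The same medians over the 5 regions of these genes with a residual peak were 22.6% and 11.1%. The regions of Tcf15 and Tcf21 carried most of the summed values. The region of Mesp1 and Mesp2 was covered to 15.3% by K27M and 8.95% by EZHIP, that of Hand1 to 20.3% by each, and that of Hand2 to 22.6% and 10.4%. A CpG island was found in 6 of the 14 K27M peaks and in 9 of the 18 EZHIP peaks. In the Tcf21 region 1 of 8 K27M peaks held one. No share over all peaks of the lists is given beside these counts. The paper, with its own island annotation, associates most of the remaining peaks with CpG islands. That statement is about the genome, and the counts from these 6 regions cannot be set against it. Of the 21 islands in the 6 regions, 14 lay in K27M peaks and 12 in EZHIP peaks, again without a share over all K27R regions.

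EZHIP peaks lay mostly inside K27M peaks in these regions, an exception being the second EZHIP peak of the Hand1 region. Of the EZHIP length 98.3% was shared with K27M, whereas 49.0% of the K27M length was shared with EZHIP. Here 173.8 kb were in both lists and 3.0 kb in EZHIP only, against 27216.2 and 9227.7 kb over every K27R region. In the regions of the members the shared length was 48.6% of the union, close to the 46.3% over all K27R regions with a protein-coding 5′ end. It was 83.7% in the Hand1 region, 73.1% in that of Tcf15, 58.6% in that of Mesp1 and Mesp2, 45.9% in that of Hand2 and 24.4% in that of Tcf21. The Tcf21 region alone held 116.2 of the 180.8 kb that were in K27M peaks only, and without it the shared length was 67.1% of the union.

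The sequence of the shared and unshared stretches was set side by side. Over the 6 regions, stretches in both lists had 17.66 CG per kb, those in K27M only 9.69 and those in neither 9.80. Stretches in both lists were the most CG-rich in each of the 5 regions that had them, from 13.04 CG per kb in that of Tcf21 to 38.53 in that of Mesp1 and Mesp2. Stretches in K27M only were above those in neither at Hand1 (17.5 against 10.71), Hand2 (16.19 against 8.54) and Mesp1 and Mesp2 (15.42 against 13.39), and below them at Tcf21 (7.97 against 8.52) and Tcf15 (9.38 against 12.04). Over every K27R region the values were 19.12 in both lists, 11.92 in K27M only and 8.87 in neither.

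**Figure D4:**
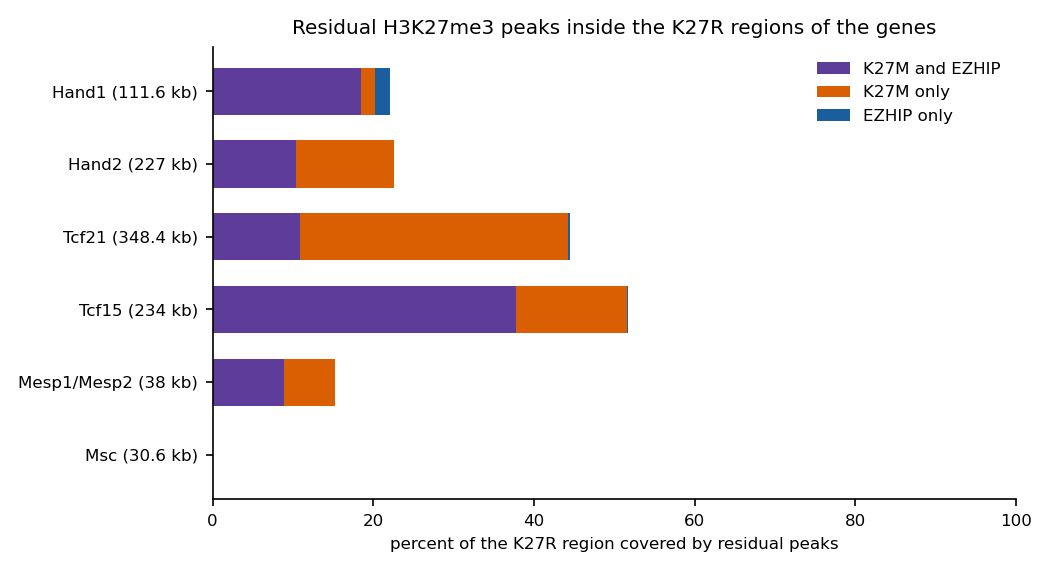
Percent of each K27R region (width in parentheses) covered by peaks of both K27M and EZHIP, of K27M only and of EZHIP only, with 1 library each. Tcf21 has the longest stretch in K27M only, Hand1 is the region where the residual lists are most alike (83.7% of the union shared), and Msc has no residual peak.

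The genes whose peaks looked most like those of each member were sought within 20 kb either side of the 5′ end, by the Jaccard index over 200 bp bins of the 3 lists together. For Hand2 it was T, the brachyury gene of early mesoderm, at an index of 0.919, where the K27R peak was 333.0 kb wide, the K27M peak 53.8 kb and the EZHIP peak 15.6 kb. For Tcf15 it was Bcan (0.935, K27R peak of 60.8 kb) and for Tcf21 Zbtb7c (0.933, 353.6 kb). For Mesp1 it was Hecw2 (0.923, 63.4 kb) and for Hand1 Rtbdn (0.863, 42.2 kb). Mesp2 and Msc, with K27R peaks only, were nearest to Rps10 (0.922, 124.0 kb) and Slc26a10 (0.961, 29.4 kb). Of the genes matched, T alone is in the list of other mesoderm transcription factors below. The index covers only the 20 kb either side, and whole K27R peaks could differ in width. They differed much at Bcan, against 234.0 kb at Tcf15, and little at Zbtb7c, against 348.4 kb at Tcf21. These are the best of all protein-coding genes and are a description.

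Other genes of the mesoderm and of the bHLH pathway were counted from lists chosen with earlier results known. Of 35 other mesoderm transcription factors, 21 lay in K27R peaks, against 30.1% of all genes. The same 21 lay in K27M peaks and 15 in EZHIP peaks, against 9.02 and 7.73% of all genes. The 6 genes in K27M but not in EZHIP peaks were Eomes, Foxc2, Foxf1a, Gata6, Pax1 and Pax3. None of the 5 mesoderm bHLH genes in K27M peaks was in that state. The same held for the upstream, downstream, myogenic and proneural genes counted below, so that this is not particular to the mesoderm bHLH genes. Of the 6 genes named, Foxf1a lay 0.886 kb from the nearest EZHIP peak and the others 32.671 to 345.908 kb. Among the 2011 genes in both K27R and K27M peaks, 73.4% were in EZHIP peaks. The factors outside every list were Gsc, Tbx6, Msgn1, Foxc1, Meox1, Twist1, Twist2, Prrx1, Prrx2, Osr1, Tbx5, Tbx18, Mef2c and Hes7. All of them are named here, after their values were seen.

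Among the partners and inhibitors of these bHLH factors, 1 of 3 class I genes and 0 of 4 Id genes lay in K27R peaks, against 30.1% of all genes. Of the class I partners, Tcf3 lay in a K27R peak of 139.2 kb and in no residual peak, and Tcf4 and Tcf12 were in no list. Id1, Id2, Id3 and Id4 were in no list, with Id4 nearest to a K27R peak at 3.405 kb. Among signals that act upstream, 5 of 7 genes (Bmp2, Wnt3a, Dll1, Dll3 and Fgf8) lay in all 3 lists and Bmp4 and Tgfb2 in none. Of all 22350 protein-coding genes, 1476 lay in all 3 lists. Among genes known to act downstream, 4 of 10 lay in all 3 lists, namely Shh, Dlx5, Dlx6 and Ripply2. Epha4 and Tnmd lay in K27R peaks only, of 12.4 kb at Epha4 and 1663.8 kb at Tnmd. Tnmd is on chromosome X, whereas the mesoderm bHLH genes are autosomal. Of the related proneural bHLH genes, 10 of 10 lay in K27R peaks and 8 in all 3 lists. Of the myogenic bHLH genes, Myod1 lay in all 3 lists and Myf5, Myf6 and Myog in none.

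**Figure D5:**
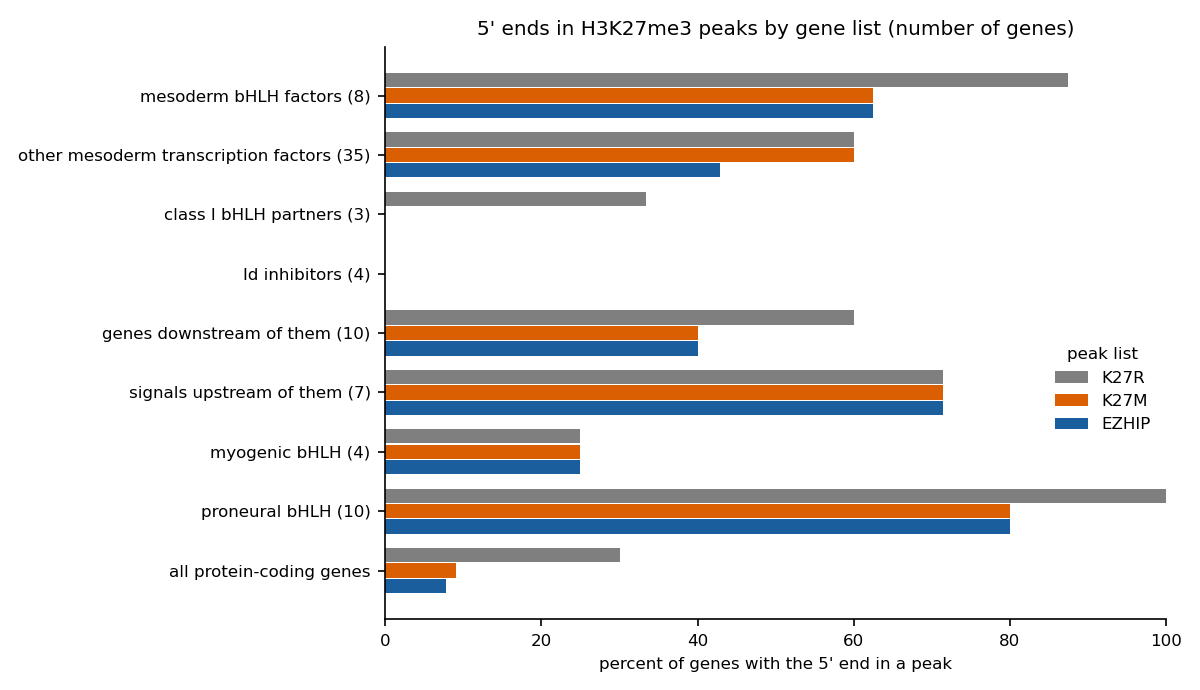
Percent of genes with the 5′ end in a K27R, K27M or EZHIP peak for each gene list (number of genes in parentheses) and for all protein-coding genes, with 1 library each. The K27M and EZHIP bars are equal for the mesoderm bHLH factors (5 of 8) and for every other list except the other mesoderm transcription factors (21 and 15 of 35). Among all genes they stand at 9.02 and 7.73%.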

How the data were processed

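H3K27me3 ChIP-Seq peak lists of the K27R, K27M and EZHIP lines were analysed, with groups taken from sample titles. By the study's methods, chromatin was digested with MNase, reads were aligned with bowtie (1.0.0 in the submitters' processing notes) to mm9 and a reference genome of another species, and broad peaks were called by the authors with MOSAiCS-HMM. The deposited lists give chromosome, start and end, with no score. Starts and ends lie on a 200 bp grid, and positions are printed counting from 1. Depth is unknown.

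Peaks were compared with GENCODE vM1 genes on mm9 (NCBIM37) without conversion. RefSeq promoters were matched in mm9 for 4 of the 8 genes (Hand2, Tcf21, Mesp1 and Mesp2) and changed no state. CpG islands (27078, repeats not masked) were found by scoring 17 per CG and -1 otherwise, with a minimum G+C of 50%, a length above 200 bp and more than 0.6 of the CG number that base composition predicts. The interval and island scripts were tested on simulated data. The tools were scipy 1.17.1, pandas 2.3.3 and numpy 2.4.6 under Python 3.11.15.

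No test was run. The genes and lists were chosen with earlier results of these data known. Named were the 8 genes, genes with 5′ ends in their K27R regions, the most alike gene of each, listed genes that differed between K27M and EZHIP (at most 6), Id and class I genes, and others as stated. The marker Spi1 was not matched by symbol. The coding windows of Tcf15 and Scx are not reported here. Alternatives were merging of peaks up to 10000 bp apart, minimum widths of 2000 and 5000 bp, other definitions of the 5′ end, windows and islands and, chosen after seeing the data, RefSeq 5′ ends, peaks shortened by 200 bp at both ends and leaving out the Tcf21 region.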

Additional observations from a re-analysis of the deposited data

How the results depend on the processing

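Of 55 values under the alternatives, 45 stayed within the limit set for each and 10 moved beyond it. All are counts or shares, which have no sign to reverse. For shares of peaks the limit was the 95% binomial interval, which is wide. It treats peaks as independent, although 8 of the 14 K27M peaks lay in the Tcf21 region. The widths of the peaks over the 5′ ends were not among the 55 values. After merging, the K27M to EZHIP width ratio of Hand1 turned from 1.11 to 0.95. The median K27R to EZHIP width ratio fell from 15.81 to 8.42. The count of genes with the 5′ end in a peak was equal to that reported in 23 of 24 alternatives, the exception being EZHIP with a minimum width of 5000 bp (4 genes, without Mesp1). Many of these settings could not have lowered it, so that the agreement is a weak check. K27R peaks over the genes were at least 30.6 kb wide and K27M peaks at least 5.8 kb, above both minimum widths. Merging and a distance of 5000 bp can only add genes. The RefSeq 5′ ends lay at most 198 bp away. With 5000 bp added before the 5′ end, gene bodies were covered to 59.3% by K27M and 58.5% by EZHIP. The part of the K27R regions covered by K27M was 37.9% after merging and 31.3% without the Tcf21 region. That covered by EZHIP was 21.7% after merging, 15.5% with a minimum width of 5000 bp and 21.6% without the Tcf21 region. The shared length was 60.3% of the union within 20 kb of the 5′ ends, 56.5% after merging and 67.1% without the Tcf21 region. The setting without Tcf21 was chosen after seeing the data. The share of K27M peaks with a CpG island, 42.9%, ranged from 35.7 to 54.5%, and that of EZHIP peaks, 50%, from 38.9% with islands of at least 500 bp to 70% with a minimum width of 5000 bp. No paired analysis was possible because each line had 1 library, and for the same reason no library could be left out. Without read counts, a lost peak cannot be told apart from a weak one, and a difference in depth between libraries cannot be told apart from one between lines.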

Other observations

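The state of the genes was also set beside the width of their K27R regions, in classes chosen after seeing the data. Msc and Mesp2, without residual peaks, lay in K27R regions under 40 kb, as did Mesp1, whereas Hand1, Hand2, Tcf21 and Tcf15 lay in regions of at least 100 kb. Among all K27R genes with a CpG island near the 5′ end, 22.8% of 879 genes in regions under 40 kb were kept in both residual lists and 53.9% were in neither. In regions of 40 to 100 kb, 38.5% of 776 genes were kept in both and 44.2% were in neither. In regions of at least 100 kb, 49.7% of 1461 genes were kept in both and 37% were in neither. After peaks up to 10000 bp apart were joined, the region of Mesp1 and Mesp2 was 47.6 kb wide and left the class under 40 kb. Genes that share a region are not independent, and no test was made.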
